A study of Daucus carota with 18 samples.

Results

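The 14 genes described here had practically no reads in the root phloem of the dark purple carrot set dP2, and were expressed in the dark purple set dP1 and the pale purple set pP. They were chosen on CPM (the expected count of a gene per 1000000 expected counts of the library). A gene had to have a mean of at least 5 CPM in each of the 4 dP1 and pP groups, and to be at or under 0.3 CPM in every one of the 6 dP2 libraries. Of 32113 genes in the files, 11655 met the first condition after the exclusions given next, and 14 of these, or 0.12%, met the second as well. Genes that the study names, and genes in 2 stretches of ID numbers that it mapped, were left out of the choice. None of those 604 genes met both conditions. Because the levels in dP2 against dP1 and pP chose the genes, that contrast is given as a description, without a test.

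RNA was sequenced from 2 tissues of 9 field-grown roots, 3 per set, which gave 18 libraries in 6 groups of 3. The tissues were the purple outer phloem (POP) and, beside it, the non-purple inner phloem (NPIP). The dP2 roots had a high anthocyanin concentration in the outer phloem and a purple xylem, and came from one F2 family grown in Wisconsin. The dP1 roots, with a high anthocyanin concentration, and the pP roots, with a low one, had a non-purple xylem and came from a sibling F2 family grown in California. All roots had a non-purple inner phloem. Family, site and root phenotype differ together between dP2 and the other sets and cannot be told apart.

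The carrot storage root is largely secondary phloem and xylem, and its outer phloem, also called the cortex, can be coloured by anthocyanins while the inner phloem stays pale. Roots of an F2 family are siblings and not copies of each other, because each plant inherits its own mixture of the grandparental chromosomes. A gene can be listed without reads because it is not transcribed, because it is missing from that plant, or because its transcript differs too much from the reference to be matched, and read counts alone do not separate these cases. In a bulk tissue sample, fewer cells of a type and less RNA per cell cannot be told apart either.

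The libraries held between 6918267 and 9133313 expected counts, so that 1 read was worth 0.109 to 0.145 CPM. No library was a copy of another. The phloem markers fixed for this work, homologs of the phloem regulator APL, had reads in at least 15 of 18 libraries and were higher in NPIP than in POP in each set. DCAR_009660 averaged 3.94 CPM in POP and 29.3 CPM in NPIP of dP2, 1.22 and 7.4 CPM in dP1, and 0.963 and 5.27 CPM in pP. Chalcone synthase, the entry enzyme of flavonoid synthesis, averaged 330 CPM in POP and 1.14 CPM in NPIP of dP2. Of the secondary cell wall and xylem markers, KNAT7 averaged 9.72 CPM in POP and 2.86 CPM in NPIP of dP2, and IRX15-LIKE 22.2 and 3.12 CPM. The study reported chalcone synthase as higher in POP in these same libraries, and the markers were partly chosen on them. Their levels are therefore no independent check of the tissue labels. Neither the files nor the reference table used here pair any of the 14 IDs with a gene name, function or sequence, and the genes are therefore given by ID alone. The table matched 0 of the 14.

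The study took both tissues from each root, and replicate numbers join them. The numbers were compared with the genes that were at or under 0.3 CPM in exactly 1 POP and 1 NPIP library of a set, among genes with a mean of at least 5 CPM in both its groups. The numbers matched for 21 of 22 such genes in dP2 and 12 of 12 in dP1. In pP they matched for 10 of 21, all at number 2. The other 11 had POP replicate 1 with NPIP replicate 3 (8 genes) or POP replicate 3 with NPIP replicate 1 (3 genes). Numbers 1 and 3 of pP therefore went against the labels, and results that rest on them are given with the labels as deposited and with these 2 numbers of pP NPIP exchanged. The exchange moves no library between groups and touches only the pairing.

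In dP2, 8 of the 14 genes had no read in any of the 6 libraries. The other 6 had at most 3.86 expected counts over all dP2 libraries together, and the highest level in a single one was 0.169 CPM, for DCAR_004987 in NPIP replicate 1. In dP1 and pP, the mean over the 12 libraries was between 6.68 CPM (DCAR_012836) and 87.6 CPM (DCAR_013549), with a median of 20.0 CPM, against 35.9 CPM over all 11655 genes. Set per transcript length, in TPM (transcripts of a gene per 1000000 transcripts), the 14 genes averaged between 2.72 TPM (DCAR_012836) and 126 TPM (DCAR_005655). The coding length listed for them was 249 to 2421 bases, with a median of 766.5 against 1266 for all 11655 genes.

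**Figure D1:**
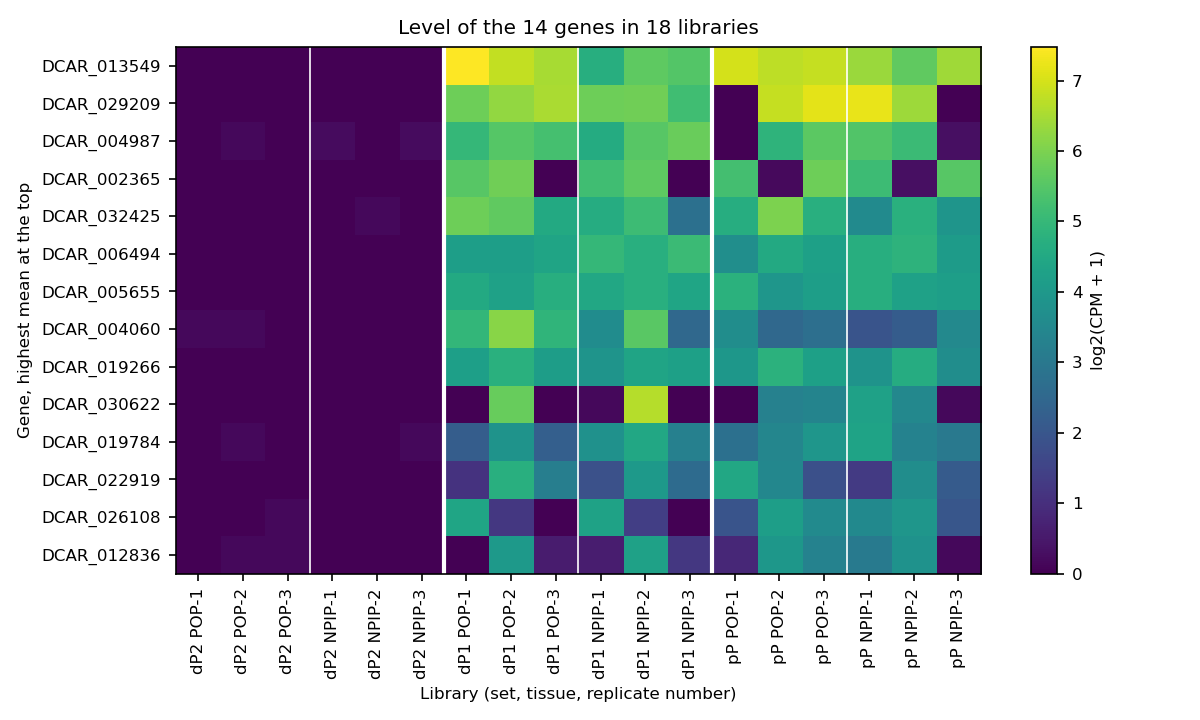
Level of each of the 14 genes (rows, highest mean at the top) in each of the 18 libraries (columns, by set, tissue and replicate number), as log2(CPM + 1) in colour. The 6 dP2 columns are at or near 0 for all genes, as the choice of genes required, and 6 genes also have libraries at or under 0.3 CPM in dP1 or pP.

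The size of the gap is bounded by the depth. For the 8 genes without a dP2 read, an allowance of 3 reads over the 6 dP2 libraries gave a level in dP2 that was at least 1503-fold lower than in dP1 and pP for DCAR_013549 and at least 1241-fold lower for DCAR_029209. The bounds were 528-fold for DCAR_002365, 380-fold for DCAR_006494, 360-fold for DCAR_005655, 316-fold for DCAR_019266, 298-fold for DCAR_030622 and 157-fold for DCAR_022919. The bound of DCAR_030622 rested on NPIP replicate 2 of dP1 and was 164.5-fold without it, and 6 of the 12 dP1 and pP libraries of this gene were themselves at or under 0.3 CPM. For genes with a few dP2 reads, the ratio of dP1 and pP to dP2 carried a wide counting interval. It was 1505 for DCAR_032425 (95% exact interval 269.9 to 59460, from 1 dP2 read) and 439 for DCAR_004987 (165 to 1555). It was 509 for DCAR_004060 (141 to 4206), 426 for DCAR_026108 (76.2 to 16830), 280 for DCAR_019784 (77.3 to 2313) and 176 for DCAR_012836 (48.5 to 1456). These intervals cover counting error only. They do not allow for the choice of the genes, which required a low level in dP2. Bounds and ratios alike describe the gap and are no test of it. Neither allows for reads divided between similar genes in counting, which is taken up below and includes DCAR_013549 and DCAR_029209.

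Within dP1 and pP, the genes behaved in 3 ways. The first kind, 5 genes, stayed at or above 5 CPM in all 12 libraries. That their libraries did not overlap with dP2 follows from this sorting and from the limit that chose the genes. The same holds for the second kind below. DCAR_005655, the shortest of the 14 genes, was the most even of all. It had 22.2, 18.4 and 24.6 CPM in POP and 21.1, 25.4 and 20.0 CPM in NPIP of dP1, and 26.5, 14.2 and 17.4 CPM in POP and 24.8, 18.4 and 17.2 CPM in NPIP of pP. Its highest and lowest library differed 1.87-fold, and it had no read in any dP2 library. DCAR_019266 had 17.7, 26.0 and 16.9 CPM in POP and 13.8, 19.4 and 17.9 CPM in NPIP of dP1, and 14.6, 27.0 and 18.1 CPM in POP and 13.3, 23.9 and 11.6 CPM in NPIP of pP, a range of 2.32-fold. DCAR_006494 had 17.3, 17.4 and 19.5 CPM in POP and 30.6, 25.4 and 33.4 CPM in NPIP of dP1, and 11.99, 22.3 and 18.1 CPM in POP and 24.7, 27.6 and 16.3 CPM in NPIP of pP. In dP1, its POP libraries were all below its NPIP libraries, and in pP the tissues overlapped.

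DCAR_013549, the gene with the highest CPM, had 177, 110 and 88.9 CPM in POP and 24.7, 48.2 and 43.9 CPM in NPIP of dP1, and 127, 105 and 113 CPM in POP and 80.9, 49.1 and 83.3 CPM in NPIP of pP. All POP libraries lay above all NPIP libraries in both sets. DCAR_032425 had 55.4, 49.1 and 22.2 CPM in POP and 23.5, 34.2 and 5.81 CPM in NPIP of dP1, and 24.2, 63.5 and 25.1 CPM in POP and 10.9, 26.1 and 14.02 CPM in NPIP of pP. Its tissues overlapped in both sets, with a range of 10.9-fold over the 12 libraries. The count of DCAR_013549 was not a whole number in 12 libraries, which happens where RSEM divides reads between similar genes, and its level is uncertain to that extent. Such divided counts in at least 5 of the 18 libraries were seen for 4 of the 14 genes (DCAR_013549, DCAR_029209, DCAR_004987 and DCAR_026108), against 13.7% of the 11655 genes. The 2 shares are not like for like, because the 14 genes had few or no reads to divide in dP2. Whether reads of these genes were given to a similar gene in dP2 was not tested.

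The second kind, 3 genes, varied widely without reaching 0.3 CPM in a dP1 or pP library. DCAR_004060 had 29.7, 70.0 and 28.9 CPM in POP and 11.5, 46.3 and 4.72 CPM in NPIP of dP1, and 11.6, 4.77 and 5.58 CPM in POP and 2.82, 3.55 and 10.6 CPM in NPIP of pP. In POP, all dP1 libraries were above all pP libraries, and in NPIP the sets overlapped. DCAR_019784 had 3.62, 13.3 and 3.80 CPM in POP and 12.6, 21.2 and 8.47 CPM in NPIP of dP1, and ranged between 5.80 and 19.3 CPM in pP. DCAR_022919 had 1.12, 25.5 and 8.21 CPM in POP and 2.63, 15.4 and 5.08 CPM in NPIP of dP1. In pP it had 21.5, 10.1 and 2.52 CPM in POP and 1.41, 11.7 and 3.45 CPM in NPIP. In dP1, the order of the 3 roots was the same in both tissues for this gene, with root 2 highest and root 1 lowest.

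The third kind, 6 genes, was at or under 0.3 CPM in at least 1 dP1 or pP library while being expressed in the others. This was 6 of 14 genes (42.9%), against 0.266% of the 11655 genes and 25 of 11641 (0.215%) when the 14 are taken out. The conditions that chose the genes set group means in dP1 and pP and no lower limit for a single library there. Of the 25 other genes, 19 had a mean of at least 5 CPM in dP2. Read from the other side, 6 of 31 genes (19.4%) with such a library were also at or under 0.3 CPM in all of dP2, as were 8 of 11624 (0.0688%) of the genes without one.

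DCAR_002365 was the clearest case. It had 45.3, 57.4 and 0 CPM in POP and 35.3, 48.3 and 0 CPM in NPIP of dP1, and 36.6, 0.144 and 55.8 CPM in POP and 34.1, 0.229 and 44.9 CPM in NPIP of pP. Root 3 of dP1 and number 2 of pP were thus at or under 0.3 CPM in both tissues, and the 8 remaining libraries lay at 34.1 CPM or above. DCAR_026108 had 20.0, 1.32 and 0 CPM in POP and 19.0, 1.62 and 0 CPM in NPIP of dP1, so that the 3 roots stood at 3 separate levels that both tissues shared. In pP it had 2.84, 17.3 and 11.01 CPM in POP and 10.6, 14.3 and 2.97 CPM in NPIP.

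DCAR_029209 had 55.9, 75.6 and 91.7 CPM in POP and 55.6, 56.8 and 35.4 CPM in NPIP of dP1, and 0, 112 and 143 CPM in POP and 148, 83.2 and 0 CPM in NPIP of pP. DCAR_004987 had 30.6, 44.3 and 37.9 CPM in POP and 23.0, 45.6 and 53.2 CPM in NPIP of dP1, and 0, 27.8 and 47.7 CPM in POP and 43.0, 33.2 and 0.242 CPM in NPIP of pP. Both genes were expressed in all dP1 libraries and were at or under 0.3 CPM in the same pair of pP libraries, POP replicate 1 and NPIP replicate 3. As deposited, these libraries carry different numbers. With numbers 1 and 3 of pP NPIP exchanged, they are both tissues of a single root.

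DCAR_030622 had 0, 51.9 and 0 CPM in POP and 0.125, 99.1 and 0 CPM in NPIP of dP1, and 0, 8.83 and 9.41 CPM in POP and 18.5, 10.2 and 0.119 CPM in NPIP of pP. DCAR_012836 had 0, 15.1 and 0.49 CPM in POP and 0.50, 18.3 and 1.33 CPM in NPIP of dP1, and 0.774, 14.4 and 8.87 CPM in POP and 7.29, 12.9 and 0.119 CPM in NPIP of pP. Among the dP1 roots, only root 2 had more than 1.33 CPM of either gene in a library, and in pP the same pair of libraries as above, POP replicate 1 and NPIP replicate 3, had the lowest level of each.

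**Figure D2:**
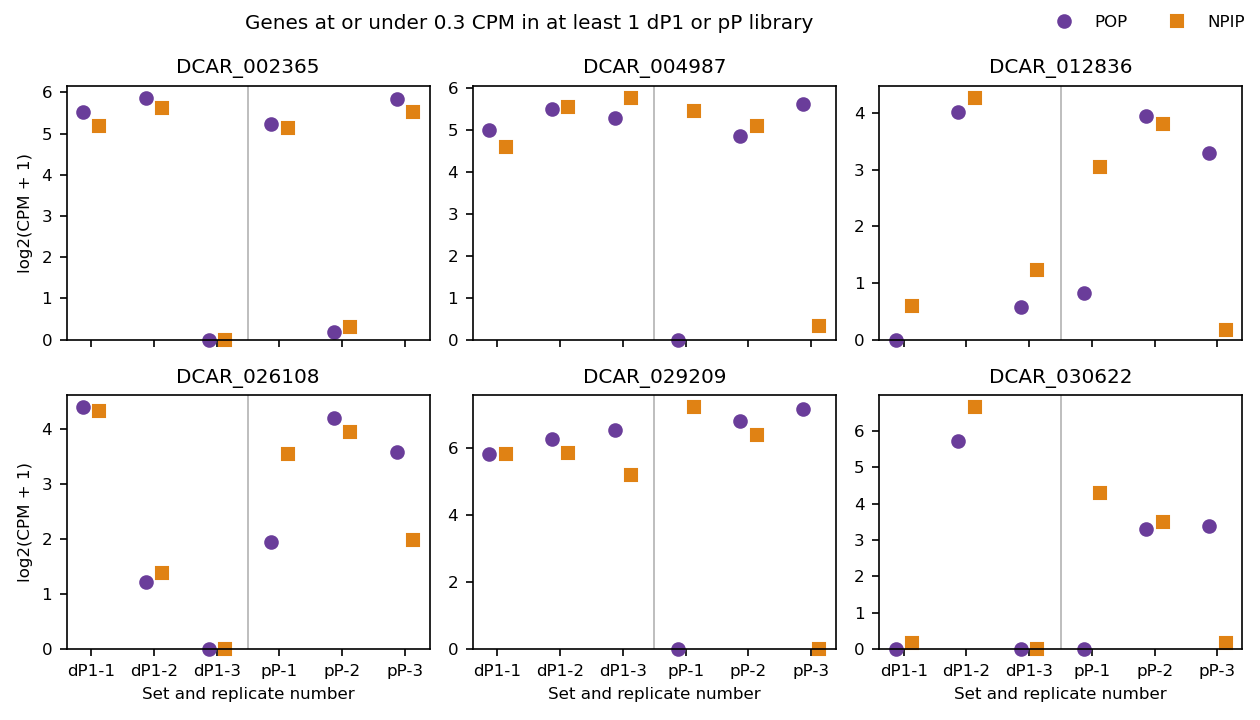
Level, as log2(CPM + 1), of the 6 genes at or under 0.3 CPM in at least 1 dP1 or pP library, by set and replicate number, with circles for POP and squares for NPIP. In dP1 both tissues of a number lie close together for each gene. With the pP numbers as deposited, numbers 1 and 3 of DCAR_004987, DCAR_029209, DCAR_030622 and DCAR_012836 have one tissue high and the other low. With numbers 1 and 3 of pP NPIP exchanged, both tissues of these genes are low together in number 1 and high together in number 3.

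ID numbers were read as an order along the assembly, so that close numbers stand for genes that lie near each other. Positions of the 14 genes were not available. The order has exceptions, because the study places a MYB gene in a mapped region whose other IDs are far from its own. No close pairs by ID number were found among the 14 genes. None lay within 1, 5, 10 or 100 numbers of another. The closest pair, DCAR_019266 and DCAR_019784, was 518 numbers apart, and the median and largest gaps were 1695 and 6342 numbers. The files run from ID number 55 to 32551, and so few genes scattered over that range would seldom lie close together. The lack of close pairs therefore does not show that the 14 genes are placed independently of each other. In all, 8 genes fell between IDs of known chromosome in the study's gene tables, on 6 chromosomes. DCAR_002365 and DCAR_004060 were bracketed on chromosome 1, DCAR_005655 and DCAR_006494 on chromosome 2, DCAR_013549 on chromosome 4, DCAR_019266 on chromosome 5, DCAR_026108 on chromosome 7 and DCAR_030622 on chromosome 9. The other 6 were not bracketed. For comparison, the same conditions turned round gave 43 genes that were expressed in dP2 and silent in all 12 dP1 and pP libraries. Of these, 4 lay within 5 numbers and 15 within 100 numbers of another. A larger set holds more close pairs by its size alone, and no allowance was made for this. The counts therefore do not show that these genes cluster more than the 14. The turned conditions also gave 5 genes silent in dP1 alone and 2 silent in pP alone.

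Among genes that missed the mean of 5 CPM, 2 were close neighbours of chosen ones. DCAR_005653, 2 numbers from DCAR_005655, had its lowest group mean at 4.81 CPM. DCAR_004061, next to DCAR_004060, had no dP2 read and a mean of 10.5 CPM over dP1 and pP, but its lowest group mean was 2.98 CPM, in NPIP of pP. With a lower mean of 2 CPM in each group, 39 genes met the conditions, and 4 of them lay within 5 numbers of another, which were these 2 pairs. The genes nearest to the mean of 5 CPM on the inside had lowest group means of 5.21 CPM (DCAR_012836), 5.51 CPM (DCAR_022919) and 5.65 CPM (DCAR_004060), and those nearest on the outside 4.81 CPM (DCAR_005653), 4.68 CPM (DCAR_019760) and 4.31 CPM (DCAR_022041). At the limit of 0.3 CPM, the highest dP2 library was at 0.169 CPM for DCAR_004987 and 0.118 CPM for DCAR_004060 and DCAR_012836 on the inside, and at 0.467 CPM for DCAR_027753 and DCAR_029955 and 0.561 CPM for DCAR_016803 on the outside.

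Most expressed genes around the 14 were expressed in dP2 too, though a smaller share of them than of all genes. Within 5 ID numbers of one of them there were 140 other genes, of which 90 had a mean of at least 1 CPM over dP1 and pP. Of these 90, 78 had a mean of at least 1 CPM in dP2 too, against 17016 of all 17872 such genes. At or under 0.3 CPM in all dP2 libraries were 5 of the 90 (5.56%), against 0.834% of all such genes. The 5 belonged to 5 different members of the 14. Besides DCAR_004061 and DCAR_005653, they were DCAR_026109, next to DCAR_026108, with a mean of 0.0197 CPM in dP2 and 1.66 CPM in dP1 and pP, DCAR_004982 near DCAR_004987 (0 and 1.33 CPM), and DCAR_006491 near DCAR_006494 (0.0761 and 1.26 CPM). By a difference of at least 4-fold in mean CPM + 1, 7 of the 90 genes (7.78%, against 2.44% of all such genes) were lower and 5 (5.56%, against 4.19%) were higher in dP2. Among those lower were DCAR_013554, 5 numbers from DCAR_013549, with 0.384 CPM in dP2 and 74.8 CPM in dP1 and pP, and DCAR_004985, 2 numbers from DCAR_004987, with 2.25 and 29.0 CPM. Among those higher were DCAR_013547, 2 numbers from DCAR_013549, with 1300 CPM in dP2 and 242 CPM in dP1 and pP, DCAR_013552, 3 numbers from DCAR_013549 (730 and 90.7 CPM), DCAR_013553 (673 and 146 CPM), and DCAR_019787 near DCAR_019784 (246 and 18.3 CPM). These examples were picked after their values were seen.

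**Figure D3:**
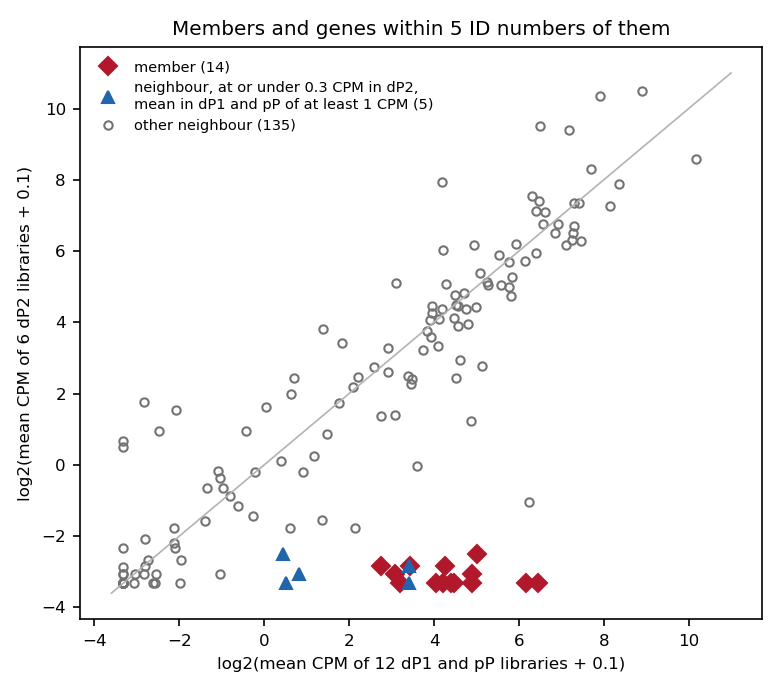
Mean level in the 6 dP2 libraries (vertical axis) against the mean in the 12 dP1 and pP libraries (horizontal axis), both as log2(CPM + 0.1), for the 14 genes (diamonds) and the 140 other genes within 5 ID numbers of them. Most neighbours lie near the line of equal level, and 5 (triangles) with a mean of at least 1 CPM in dP1 and pP are at or under 0.3 CPM in every dP2 library.

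Genes of like pattern were sought for the 6 genes of the third kind, by Pearson's r of log2(CPM + 1) over the 12 dP1 and pP libraries with 17885 other genes. The values of these genes were known when this was done, the 12 libraries come from 6 roots, and r is given as a description. For DCAR_004987, 4 of the 5 most similar genes lay within 100 ID numbers, where 0.464% of all genes lay. They were led by DCAR_004985 (r = 0.993) and DCAR_004995 (r = 0.978), and both were low in the same pair of pP libraries. DCAR_004995 had 0 CPM in POP replicate 1 and 1.55 CPM in NPIP replicate 3 of pP, and between 74.7 and 206 CPM in the other 10. In dP2 it averaged 7.26 CPM, so it was lower there than in the expressing roots but not silent. The third on the list was DCAR_029209 (r = 0.958), whose ID is 24222 numbers away.

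For DCAR_002365, 3 of the 5 most similar genes lay within 100 ID numbers (0.654% of all genes did), and DCAR_002401 led with r = 0.969. It had 0.116 CPM on average in dP2 and at most 0.121 CPM in root 3 of dP1, while its other dP1 libraries lay between 4.17 and 5.86 CPM. DCAR_003243, further along at 878 numbers (r = 0.951), had no dP2 read and was at 0 CPM in both tissues of number 2 of pP. For DCAR_026108, the most similar gene was its direct neighbour DCAR_026109 (r = 0.957), which had 4.23, 0.110 and 0 CPM in POP and 4.13, 0.229 and 0 CPM in NPIP of dP1. Like DCAR_026108, it was highest in root 1 in both tissues, but its roots 2 and 3 had too few reads to be ordered. It was the only 1 of the 5 within 100 numbers (0.71% of all genes were), and the other 4 averaged between 3.04 CPM (DCAR_014654) and 28.5 CPM (DCAR_024649) in dP2. For DCAR_029209, 0 of the 5 lay within 100 numbers.

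DCAR_012836 and DCAR_030622 resembled each other (r = 0.932) and shared the same 4 genes at the head of their lists, although 0 of the 5 most similar genes lay within 100 numbers of either. These were DCAR_000272, DCAR_013281, DCAR_013263 and DCAR_013637, of which all but DCAR_000272 were bracketed on chromosome 4, while DCAR_030622 was bracketed on chromosome 9. DCAR_012836 was not bracketed, and DCAR_013263, DCAR_013281 and DCAR_013637 lay 427, 445 and 801 ID numbers from it. The 4 genes differed from the 2 chosen ones in dP2. DCAR_000272 had 0.121 to 0.125 CPM in roots 1 and 3 of dP1 and 117 and 180 CPM in POP and NPIP of root 2, and it averaged 135 CPM in dP2, with no dP2 library under 105 CPM. DCAR_013281 averaged 34.0 CPM, DCAR_013263 22.2 CPM and DCAR_013637 5.04 CPM in dP2. The fifth gene on the list of DCAR_030622, DCAR_023776 (r = 0.953), was near silent in dP2, with an average of 0.0985 CPM. The fifth on the list of DCAR_012836, DCAR_004608 (r = 0.94), averaged 0.700 CPM in dP2 and reached 1.64 CPM in a library there.

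**Figure D4:**
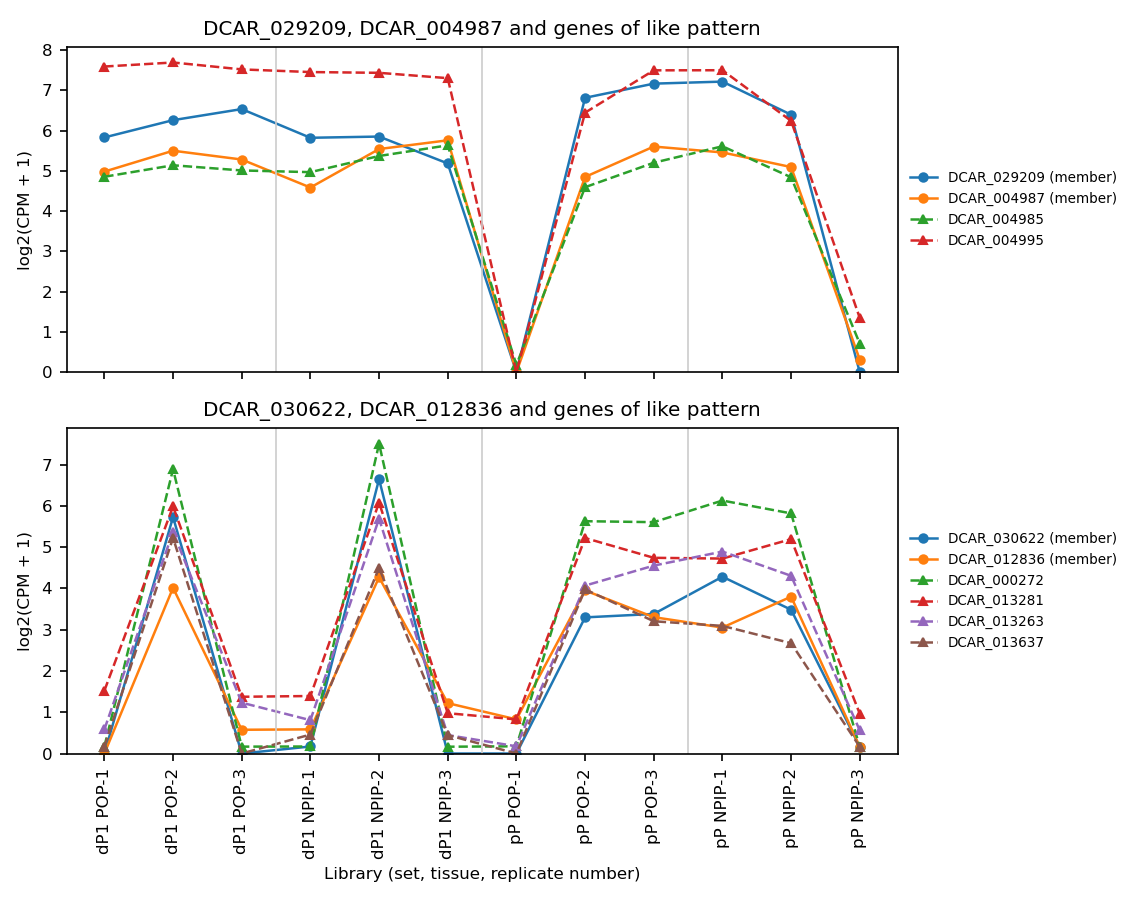
Level, as log2(CPM + 1), in the 12 dP1 and pP libraries of 4 members of the 14 (solid lines, circles) and of genes with a like pattern (dashed lines, triangles). In the upper panel all genes drop in POP replicate 1 and NPIP replicate 3 of pP, and in the lower panel all genes are also low in roots 1 and 3 of dP1.

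Differences between tissues and between dP1 and pP were not used to choose the genes and were tested. The 4 group means compared did enter the choice, each as a lower limit of 5 CPM, so genes near silent in one of these groups could not be among the 14. Shares of calls are therefore also given over the 11655 genes that met that limit. In dP1, 13 of the 14 genes passed the filter of 1 CPM in at least 3 libraries, DCAR_030622 being the exception. With edgeR's quasi-likelihood test, 1 of the 13 was higher and 1 lower in POP than in NPIP at an FDR under 0.05, against 18.9% of all 17452 genes tested (11.5% higher and 7.41% lower) and 13.8% of the genes at that limit (6.42% higher and 7.38% lower). The gene that was higher, DCAR_013549, had a log2FC of 1.74 (SE 0.36, FDR 0.0163), with POP above NPIP in 3 of 3 roots. The gene that was lower, DCAR_006494, had a log2FC of −0.69 (SE 0.18, FDR 0.040), with POP below NPIP in 3 of 3 roots. The median log2FC was 0.28 over the 13 genes and 0.01 over all genes tested.

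The side of the threshold depended on single libraries for both genes, while the log2FC of DCAR_013549 was between 1.40 and 1.97 over the 6 omissions. Without NPIP replicate 1 of dP1 DCAR_013549 had a log2FC of 1.5 (edgeR FDR 0.0583), and without NPIP replicate 3 it had 1.78 (edgeR FDR 0.0684). DCAR_006494 kept an FDR under 0.05 only when NPIP replicate 2 was the library left out, and over these omissions its FDR was between 0.0465 and 0.138 and its log2FC between −0.76 and −0.64. When the root was included as a block, 5 of the 13 genes were called in dP1, against 24.9% of all genes (14.7% higher and 10.2% lower) and 19.5% of those at the limit. The further ones were DCAR_004060 (log2FC 1.49, SE 0.38, edgeR FDR 0.0266) and DCAR_032425 (log2FC 1.22, SE 0.29, edgeR FDR 0.0227), both with POP higher in 3 of 3 roots, and DCAR_019784 (log2FC −1.15, SE 0.30, edgeR FDR 0.0286), with POP lower in 3 of 3 roots.

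In pP, 0 of the 14 genes were called by edgeR's quasi-likelihood test, against 6.23% of 17616 genes and 2.64% of those at the limit. An unadjusted p under 0.05 was found by this test for 2 genes, DCAR_013549 (log2FC 0.69, SE 0.27, edgeR FDR 0.206) and DCAR_032425 (log2FC 1.15, SE 0.46, edgeR FDR 0.206). DESeq2 and edgeR's likelihood ratio test also called 0 of the 14, against 8.59% and 6.13% of the genes at the limit. With the root as a block and the numbers as deposited, 0 were called, against 4.75% of all genes. With numbers 1 and 3 of pP NPIP exchanged, an alternative chosen after the data were seen, both of these genes were called, DCAR_013549 with a log2FC of 0.73 (SE 0.18, edgeR FDR 0.0359) and DCAR_032425 with 1.10 (SE 0.17, edgeR FDR 0.00934), against 17.8% of all genes and 12.8% of those at the limit. In each pairing, POP was above NPIP in 3 of 3 pairs for both.

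**Figure D5:**
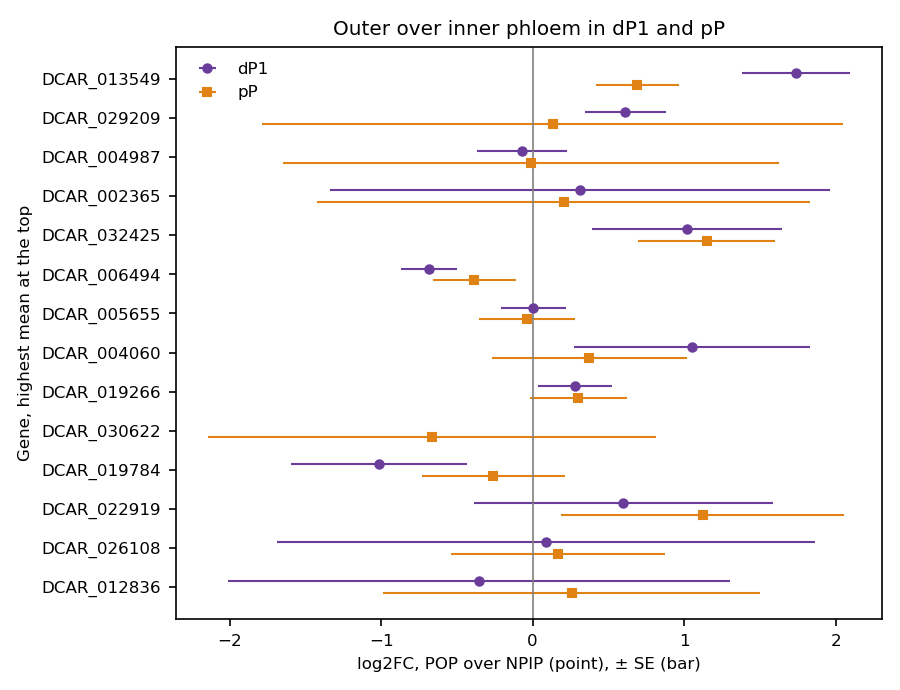
Log2FC of POP over NPIP (points) with its standard error (bars) for each of the 14 genes, in dP1 (circles) and in pP (squares), from edgeR's quasi-likelihood fits without a block. DCAR_030622 was not tested in dP1, and DCAR_013549 (1.74) and DCAR_006494 (−0.69) in dP1 are the 2 genes called.

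The difference of the tissue effect between dP1 and pP was called for 0 of the 14 genes by edgeR's quasi-likelihood test, against 0.00535% of 18699 genes and 0 of those at the limit, with 0 at an unadjusted p under 0.05. DESeq2 and the likelihood ratio test called 0 as well, each with 1 gene at an unadjusted p under 0.05. Of the genes at the limit they called 0.163% and 0.0515%. A call in dP1 and none in pP is therefore not shown to be a difference between the sets. For DCAR_013549 the difference was 1.04 on the log2 scale (SE 0.47, FDR 1 by edgeR).

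The dark and pale purple roots of the one family were compared as well. In POP, 0 of the 14 were called between dP1 and pP by edgeR's quasi-likelihood test, against 0.775% of 18699 genes and 0.42% of those at the limit, and 1 had an unadjusted p under 0.05. This was DCAR_004060, with a log2FC of 2.59 (SE 0.83, FDR 0.198) for dP1 over pP, which DESeq2 called (FDR 0.0276). Of the genes at the limit, DESeq2 called 3.29%. The likelihood ratio test called 0 of the 14, against 1.96% of the genes at the limit. In NPIP, 0 were called against 3.71% of all genes and 3.41% of those at the limit, and 2 had an unadjusted p under 0.05, DCAR_004060 (log2FC 1.91, SE 0.83, edgeR FDR 0.218) and DCAR_013549 (log2FC −0.85, SE 0.34, edgeR FDR 0.184). DESeq2 and the likelihood ratio test called 0 there, against 9.72% and 6.39% of the genes at the limit. For the genes at or under 0.3 CPM in single roots the standard error was large, up to 2.33 for DCAR_030622 in POP, so differences of several fold between the sets were not detectable with 3 roots each.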

How the data were processed

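RNA-seq libraries of POP and NPIP from 3 sets of 3 roots were used. The authors checked reads with FastQC, trimmed them with Trimmomatic 0.32, and used Bowtie2 within RSEM to assign them to genes of the V1.0 annotation. The authors deposited RSEM's expected counts, not normalized, in which a read shared by similar genes is divided among them. The deposited TPM values were used only for levels per length, and the deposited gene lengths were multiples of 3 in 99.99% of genes. Whether counting used strand is not given in the sources used here. Libraries held 6918267 to 9133313 expected counts, and groups follow the sample labels.

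The 14 genes, the lists, the tests and the rule for named genes were chosen with earlier results of these data known. CPM were computed on library sums. Fold bounds used a floor of 3 counts over the 6 dP2 libraries. For tests, expected counts were rounded to whole numbers and a gene was kept where 3 or more libraries of the fit reached 1 CPM. In fits of dP1 alone or pP alone with 1 library left out, 2 libraries were enough. TMM factors were computed, and edgeR 4.0.16 (R 4.3.3) quasi-likelihood tests were run with Benjamini-Hochberg FDR over all genes kept, called under 0.05. POP and NPIP were compared on the 6 libraries of each set, and dP1 and pP in 1 fit of 12 libraries. The standard error is the log2FC over the square root of F. Alternatives were other scalings, filters, samples and limits, DESeq2 1.42.0, edgeR's likelihood ratio test, the root as a block and each library left out. Other work used Python 3.11.15, numpy 2.4.6, pandas 2.3.3 and scipy 1.17.1.

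The study states that both tissues came from each root, which is where the pairing comes from. Deviations from group means, compared between libraries of the same number, correlated with r of 0.537, 0.315 and 0.399 in dP2, 0.346, 0.438 and 0.343 in dP1, and −0.233, 0.573 and −0.094 in pP, where the crossed pairs reached 0.578 (POP replicate 1, NPIP replicate 3) and 0.426 (POP replicate 3, NPIP replicate 1).

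Named genes were the 10 of the 14 with the highest mean, those in runs of close IDs (there were none), those called in a test, those at or under 0.3 CPM in both tissues of 1 number, and the 3 genes nearest each threshold on either side. The remaining genes of the 14, neighbours and genes of like pattern were named after their values were seen. A planned grouping by annotation could not be applied, since no description was matched. The study tables' columns of fold changes and p-values were not used.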

Additional observations from a re-analysis of the deposited data

How the results depend on the processing

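The number of genes was 14 with TMM or DESeq2 scaling and with no genes left out by name. It was 8 with no dP2 read allowed, 8 at a limit of 0.1 CPM and 28 at 1 CPM, 39 at a mean of 2 CPM, 8 at a mean of 10 CPM and 5 with every dP1 and pP library at 5 CPM or above. Leaving out 1 library gave 10 to 16 genes, with 10 without dP1 POP replicate 2 and 11 without dP1 NPIP replicate 2. The number of genes within 5 IDs of another was 4 at a mean of 2 CPM, 0 under the other settings, and 0 to 2 with 1 library left out. For POP over NPIP in dP1, 2 genes were called, 1 without the filter on low counts, 1 in the fit of all 18 libraries (DCAR_006494 had an FDR of 0.0579 and 0.0510 by edgeR there), 5 with the replicate block and 0 to 3 with 1 library left out. Without NPIP replicate 2 of dP1, DCAR_004060 was called too (edgeR FDR 0.0317), and without POP replicate 2, DCAR_019784 (edgeR FDR 0.0336). In pP, 0 were called under all settings except the replicate block with numbers 1 and 3 exchanged, which called 2. For dP1 over pP in POP, DESeq2 called 1 and the other settings 0. For dP1 over pP in NPIP and for the difference of the tissue effect, all settings gave 0, with 1 library left out too. The replicate block changed no other call. The log2FC of genes called, or with an unadjusted p under 0.05, in a comparison changed sign in 0 of 150 values over the alternatives. In the remaining comparisons of the 14 genes, 126 of 1027 values did, 116 of them with 1 library left out. The median log2FC over the genes turned to −0.18 in pP without NPIP replicate 3 and to −0.01 without POP replicate 2 (0.19 with all libraries), and to −0.13 for dP1 over pP in NPIP without dP1 NPIP replicate 2 (0.24 with all). The causes of these changes were not tested. With 3 roots per group and 1 read worth up to 0.145 CPM, levels under about 3 reads could not be ordered.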
